A study of Mus musculus with 12 samples.

Results

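Antimicrobial and alarmin transcripts were followed in cultured primary mouse keratinocytes through 7 genes: Defb14, S100a8, S100a9, Slpi, Lcn2, Chil1 and Saa3. Each was taken as the transcript cluster (the probe set of 1 gene on the array) whose single gene symbol in the platform annotation was that name. Each of the 7 had 1 such cluster, and all 7 were among the 15868 genes that passed a filter on low values, out of 21789 clusters with a single symbol. The genes were selected on their measured levels in all 4 groups, since they were named with those values known. Their differences between groups are therefore given as sizes with errors and without p-values.

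Expression was read on 12 Affymetrix Mouse Gene 1.0 ST arrays, in 4 groups of 3. All cells were primary keratinocytes from FVB/N mice, and no source used here gives the age of the mice. The first group was MT-HGF cells that were mock transduced, kept in 8% serum and treated for 24 h with AG1478, which blocks the kinase activity of EGFR, the receptor for epidermal growth factor. The second was untreated MT-HGF cells, from mice transgenic for HGF, hepatocyte growth factor, which signals through the receptor MET. In this mouse line the transgene is known to be driven by a metallothionein promoter, which is active in many cell types. The third was wild-type cells given v-rasHa, an oncogenic viral version of Hras, by transduction. The fourth was wild-type cells. The arrays of the last 3 groups share a labelled transduction time of 3 days, and the sources used here do not say if controls went through a mock step. Effects of v-rasHa and of transduction cannot be told apart. AG1478 itself cannot be told apart from mock transduction, serum and separate handling, since no vehicle-treated MT-HGF array was used here.

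Epithelia defend themselves with secreted peptides that damage microbes, with proteins that withhold the metals microbes need, and with inhibitors that protect the tissue from the proteases of inflammatory cells. Several of these proteins also act as alarmins, signals released by stressed or wounded cells that call in leukocytes. In epidermis most are low at rest and are induced by wounding, by interleukin 1 and interleukin 17 family cytokines, and by signalling through EGFR. Defb14 encodes a beta-defensin, S100a8 and S100a9 the 2 subunits of the metal-binding protein calprotectin, and Slpi a secreted inhibitor of serine proteases such as neutrophil elastase. Lcn2 encodes lipocalin 2, which binds the siderophores bacteria use to take up iron. Chil1 encodes a chitinase-like protein that binds chitin without cutting it, and Saa3 an acute phase protein made outside the liver.

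Medians of the 12 arrays spanned 6.77 to 6.84 log2 units. As a check of the MT-HGF label, Hgf transcripts were at 10.66 to 10.80 log2 units in AG1478-treated and 10.59 to 10.73 in untreated MT-HGF cells, against 4.90 to 5.36 in v-rasHa and 4.85 to 4.96 in wild-type cells. As a background, each array's 95th percentile of 157 chemosensory receptor genes, assumed to be largely unexpressed in keratinocytes, was used (at most 7.13 log2 units). These 157 are the ones that passed the filter on low values, so a background over all 1245 chemosensory clusters is lower. A difference is given as a bound where no array of the lower group was above the 157-gene background, and no difference is given where neither group was. All 10 keratinocyte markers listed, Krt5, Krt14 and Trp63 among them, were above background on every array. Replicates of 3 groups are labelled biological, but no source says whether animals or cultures were separate, so errors cover array-to-array spread alone, which may be technical. With 3 arrays a group, their number limits the precision.

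**Figure D1:**
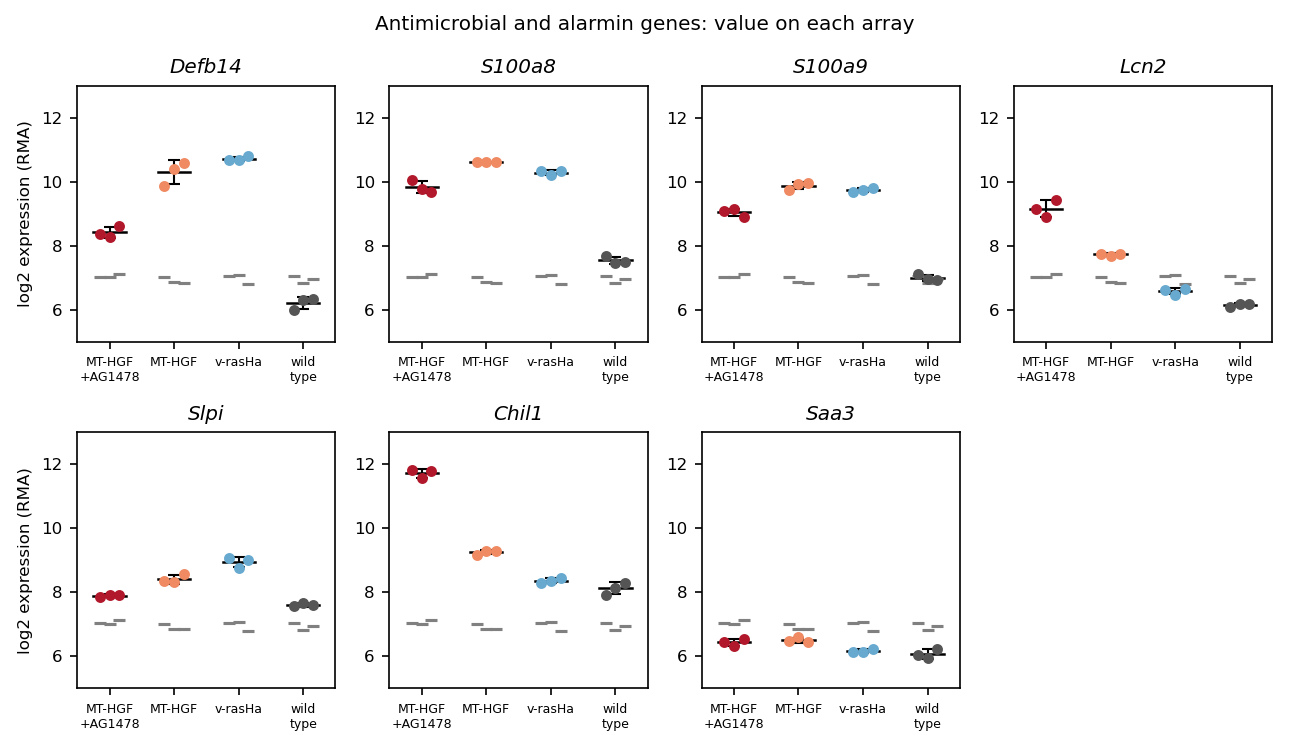
Log2 expression (vertical axis) of each of the 7 genes on every array, by group (horizontal axis: AG1478-treated MT-HGF, MT-HGF, v-rasHa, wild type); points are arrays, long bars and whiskers the mean and SD of 3 arrays, and short grey dashes each array's background. Defb14, S100a8 and S100a9 were high in v-rasHa and MT-HGF cells and lower with AG1478, Lcn2 and Chil1 were highest with AG1478, and no Saa3 value was above background.

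Defb14, S100a8 and S100a9 had the widest span between v-rasHa or MT-HGF cells and wild-type cells. Defb14 read 10.70, 10.67 and 10.80 log2 units on the 3 v-rasHa arrays, against 5.99, 6.31 and 6.34 on the wild-type arrays. The defensin was thus not above background in wild-type cells and was at least 13.7-fold higher with v-rasHa (3.78 log2 units or more; 4.52 ± 0.14 from the fit, SE, n = 3 per group). In MT-HGF cells the values were 9.89, 10.42 and 10.60 log2 units, at least 10.3-fold above wild type (3.36 log2 units or more; 4.09 ± 0.14 from the fit). With AG1478 they were 8.37, 8.29 and 8.63 log2 units. The AG1478-treated arrays all lay between the other MT-HGF arrays and the wild-type ones. The treated cells were 3.67-fold lower than untreated MT-HGF cells (-1.88 ± 0.14 log2 units), and still at least 2.79-fold above wild type.

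S100a8 read 10.33, 10.20 and 10.33 log2 units in v-rasHa cells, against 7.68, 7.48 and 7.48 in wild-type cells. In MT-HGF cells it read 10.61, 10.61 and 10.62 log2 units. Both groups stood clear of wild type, by 2.74 ± 0.09 log2 units (6.68-fold) for v-rasHa and by 3.07 ± 0.09 (8.37-fold) for MT-HGF. With AG1478 S100a8 was at 10.05, 9.79 and 9.69 log2 units, 1.71-fold lower than in untreated MT-HGF cells (-0.77 ± 0.09) and 4.91-fold above wild type. The AG1478-treated arrays overlapped neither group.

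S100a9, the partner subunit, had 9.69, 9.76 and 9.80 log2 units in v-rasHa cells, against 7.11, 6.96 and 6.93 in wild-type cells, where 2 of 3 arrays were above background. The MT-HGF arrays were at 9.75, 9.95 and 9.97 log2 units and overlapped the v-rasHa arrays. The differences from wild type were 2.75 ± 0.08 log2 units (6.74-fold) for v-rasHa and 2.89 ± 0.08 (7.41-fold) for MT-HGF. Under AG1478 the level was 9.08, 9.15 and 8.91 log2 units, 1.79-fold lower than without it (-0.84 ± 0.08) and 4.14-fold above wild type. The subunit genes thus stood at similar distances from wild type in each of the other 3 groups. For the 3 genes the AG1478 difference was smaller in size than the MT-HGF difference from wild type, with -1.88 beside 3.36 or more for Defb14, -0.77 beside 3.07 for S100a8 and -0.84 beside 2.89 for S100a9. These comparisons share the untreated MT-HGF arrays.

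S100a8 and S100a9 lie near each other on chromosome 3, and the letters around their start sites are shown because the pair had similar values. RefSeq promoter sequences (GRCm38.p6, 250 bases before to 50 after the annotated start, read along the gene) were matched for 6 of the 7 genes. The motifs searched, on both strands, were TTNNGNAA for C/EBP factors, GGG, 5 bases of any kind and CC for NF-kB, TGANTCA for AP-1, TTCNNNGAA for STAT factors and, as a start site element, TATAAA. Capitals mark every match.
S100a8 promoter, chr3:90668821-90669120, plus strand: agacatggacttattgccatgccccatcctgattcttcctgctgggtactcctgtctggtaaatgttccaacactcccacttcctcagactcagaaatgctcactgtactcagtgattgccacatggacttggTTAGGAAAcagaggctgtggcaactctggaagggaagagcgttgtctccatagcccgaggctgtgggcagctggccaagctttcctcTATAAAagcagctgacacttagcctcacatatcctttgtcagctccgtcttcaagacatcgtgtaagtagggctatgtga
S100a9 promoter, chr3:90695672-90695971, minus strand: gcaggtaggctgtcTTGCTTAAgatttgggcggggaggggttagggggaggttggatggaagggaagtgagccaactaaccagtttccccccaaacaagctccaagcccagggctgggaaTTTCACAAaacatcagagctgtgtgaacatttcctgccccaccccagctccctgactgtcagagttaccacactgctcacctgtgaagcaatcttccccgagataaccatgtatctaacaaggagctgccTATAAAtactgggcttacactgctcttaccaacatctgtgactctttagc
S100a8 had 1 C/EBP match and 1 TATAAA match, and S100a9 had 2 and 1. Neither held an NF-kB, AP-1 or STAT match in this window. Of 32851 RefSeq promoters of the same length, 40.7% held a C/EBP match, 50.8% an NF-kB match, 7.81% an AP-1 match, 8.3% a STAT match and 13.6% TATAAA. In S100a9 the TATAAA lies at the annotated start itself, and in S100a8 it begins 30 bases before it.

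Slpi differed from wild type, and between treated and untreated MT-HGF cells, in the same directions as these 3 genes. It read 9.07, 8.77 and 9.004 log2 units in v-rasHa cells, against 7.56, 7.67 and 7.59 in wild-type cells. Here v-rasHa was the highest group, 2.53-fold above wild type (1.34 ± 0.08 log2 units). MT-HGF cells were at 8.34, 8.32 and 8.58 log2 units, 1.75-fold above wild type (0.81 ± 0.08). AG1478-treated cells, at 7.84, 7.92 and 7.93 log2 units, were 1.43-fold lower than untreated MT-HGF cells (-0.51 ± 0.08) and 1.22-fold above wild type (0.29 ± 0.08). No 2 groups overlapped for this antiprotease gene, and the order was v-rasHa, MT-HGF, AG1478-treated MT-HGF and wild type, as for Defb14.

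Lcn2 and Chil1 went the other way under AG1478. Lcn2 had 9.16, 8.91 and 9.42 log2 units in AG1478-treated MT-HGF cells, against 7.76, 7.68 and 7.76 in untreated ones. The lipocalin gene was thus 2.70-fold higher with the inhibitor (1.43 ± 0.10 log2 units). Levels were 6.64, 6.48 and 6.66 log2 units in v-rasHa cells and 6.10, 6.18 and 6.20 in wild-type cells, on no array above background, so no difference between these groups is given. Untreated MT-HGF cells were at least 1.72-fold above wild type and at least 1.68-fold above v-rasHa cells, and AG1478-treated cells at least 4.66-fold above wild type.

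Chil1 read 11.82, 11.56 and 11.80 log2 units with AG1478, against 9.18, 9.29 and 9.30 in untreated MT-HGF cells, a 5.55-fold difference (2.47 ± 0.09 log2 units). In v-rasHa cells it was at 8.28, 8.36 and 8.45 log2 units and in wild-type cells at 7.93, 8.15 and 8.30, and these groups overlapped (0.23 ± 0.09). The gap between MT-HGF and wild-type cells was 1.13 ± 0.09 log2 units (2.18-fold). Chil1 was above background on all 12 arrays, and AG1478-treated cells stood 12.1-fold above wild type (3.60 ± 0.09). Among all 15868 genes the AG1478 difference of Chil1 ranked 7 and that of Lcn2 ranked 23 from the highest. Those of Defb14, S100a9, S100a8 and Slpi ranked 15864, 15785, 15749 and 15500. The genes were picked with such values known, so nothing is read from the ranks. The order of levels, AG1478-treated MT-HGF, MT-HGF, v-rasHa and wild type, was the same for Lcn2 and Chil1.

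The promoters of Lcn2 and Chil1 are shown with the same motifs in capitals, because these genes shared that order.
Lcn2 promoter, chr2:32387690-32387989, minus strand: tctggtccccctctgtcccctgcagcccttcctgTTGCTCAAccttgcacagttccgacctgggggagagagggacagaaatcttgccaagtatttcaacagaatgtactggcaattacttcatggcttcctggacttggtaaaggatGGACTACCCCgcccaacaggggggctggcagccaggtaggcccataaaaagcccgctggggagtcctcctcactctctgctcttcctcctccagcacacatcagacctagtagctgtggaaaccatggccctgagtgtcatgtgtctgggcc
Chil1 promoter, chr1:134181906-134182205, plus strand: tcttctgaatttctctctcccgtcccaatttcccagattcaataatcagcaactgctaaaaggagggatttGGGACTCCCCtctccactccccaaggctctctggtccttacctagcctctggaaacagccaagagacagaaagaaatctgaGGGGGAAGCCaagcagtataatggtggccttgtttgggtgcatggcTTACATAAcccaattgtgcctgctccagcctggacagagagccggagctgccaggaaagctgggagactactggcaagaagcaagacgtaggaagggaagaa
Lcn2 held 1 C/EBP and 1 NF-kB match, and Chil1 held 1 C/EBP match and 3 NF-kB matches, of which 2 are the same letters read on either strand. Among the 6 promoters Lcn2 and Chil1 were the ones with an NF-kB match, which 50.8% of the 32851 RefSeq promoters held. Any part of the motif in the levels was not tested. Slpi held 3 and Saa3 4 C/EBP matches. No AP-1 or STAT match was found in the 6 windows.

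Saa3 was not above this background on any array, though it was on all arrays of both MT-HGF groups with a lower background taken over all 1245 chemosensory clusters. Its values were 6.46, 6.33 and 6.53 log2 units in AG1478-treated and 6.49, 6.59 and 6.44 in untreated MT-HGF cells, against 6.13, 6.15 and 6.24 in v-rasHa and 6.03, 5.94 and 6.24 in wild-type cells. No difference is given for this serum amyloid gene, which the group means placed within 0.44 log2 units of one another. Saa genes resemble one another in sequence, as do defensin genes, and signal of a single one is uncertain where probes match several.

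**Figure D2:**
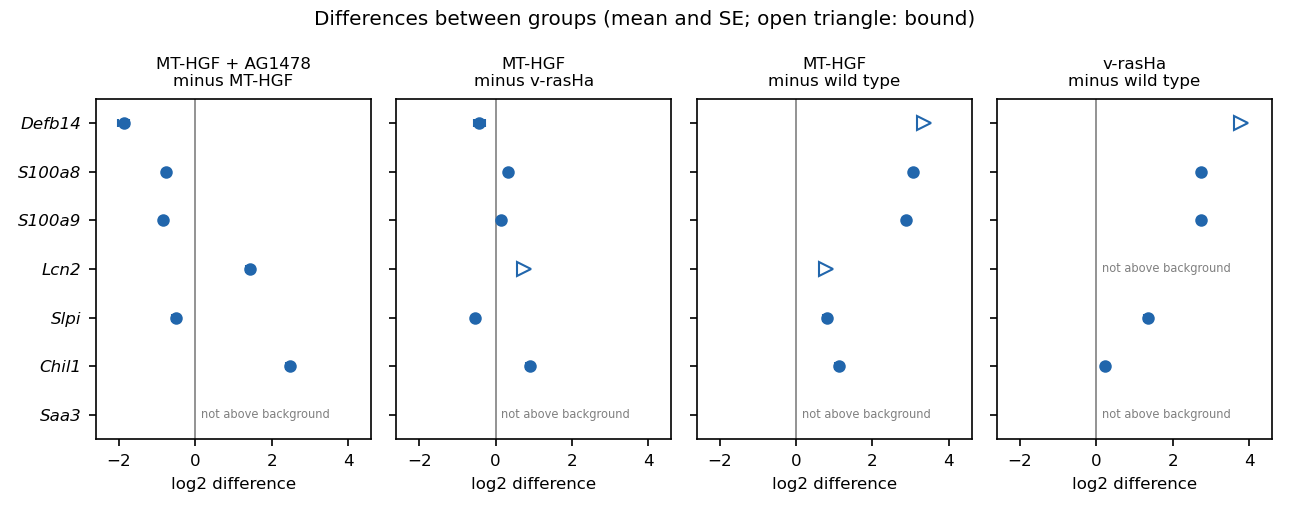
Differences between group means in log2 units (horizontal axis) for each gene (vertical axis) in 4 comparisons; filled points are differences with limma's SE, and open triangles bounds where no array of the lower group was above background. Defb14 (-1.88), S100a8 (-0.77), S100a9 (-0.84) and Slpi (-0.51) lie left of 0 for AG1478, and Lcn2 (1.43) and Chil1 (2.47) right of it.

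Set directly against v-rasHa cells, MT-HGF cells had lower Defb14 (-0.42 ± 0.14 log2 units) and Slpi (-0.54 ± 0.08), and higher S100a8 (0.33 ± 0.09), Chil1 (0.89 ± 0.09) and Lcn2 (0.75 or more). The Defb14 difference rested in part on MT-HGF replicate 1, the lowest array of its group, and was -0.22 without it. S100a9 was at 0.14 ± 0.08, with overlapping arrays. AG1478-treated MT-HGF cells, set against v-rasHa cells, differed by -2.30 ± 0.14 for Defb14, by -1.05 ± 0.08 for Slpi, by -0.70 ± 0.08 for S100a9 and by -0.45 ± 0.09 for S100a8, and by 3.37 ± 0.09 for Chil1 and at least 2.18 for Lcn2.

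As counts, 5 of the 7 genes did not overlap between v-rasHa and wild-type arrays and were higher, where 16.6% of all genes tested were higher and 26.3% lower without overlap. For MT-HGF with wild type this held for 7 (20.8% of all genes higher, 29.6% lower), and for AG1478-treated MT-HGF with wild type for 7 (21.1% higher, 29.4% lower). Between AG1478-treated and untreated MT-HGF arrays 2 were higher without overlap (16.6% of all genes) and 4 lower (17.5%), and between MT-HGF and v-rasHa 4 were higher (19.6%) and 2 lower (19.6%). For AG1478-treated MT-HGF with v-rasHa cells 3 were higher (21.9%) and 4 lower (23.9%). These counts include Saa3 and, for v-rasHa with wild type, Lcn2, whose values were not above background, where the arrays did not overlap. The genes were picked with such values in view, so nothing is read from the counts.

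S100a8, S100a9, Lcn2 and Chil1 are also products of neutrophils and macrophages, so markers of other cells were examined. Of 10 neutrophil markers 4 (Ly6g, Ngp, Retnlg and Ltf) did not pass the filter on low values, and of the other 6 none was above background on all 3 arrays of any group. Cxcr2 was above it on 1 MT-HGF array. Its mean was 6.16 log2 units in AG1478-treated MT-HGF, 6.65 in MT-HGF and 6.32 in v-rasHa cells, against 5.32 in wild-type cells. Of the 6, 1 was called higher by limma (12.6% of all genes) and 0 lower (19.9%) with v-rasHa against wild type. In MT-HGF cells 1 was called higher (17.1%) and 1 lower (23.9%) than in wild type. Under AG1478 0 were called higher (6.57%) and 1 lower (9.91%). The mean level of these 6 lay between 6.16 and 6.30 log2 units in AG1478-treated MT-HGF, 6.20 and 6.28 in MT-HGF, 6.10 and 6.23 in v-rasHa and 6.02 and 6.11 in wild-type cells. Of 9 measured leukocyte markers, of 12 listed, Cd68 was above background on all arrays of each group, and Fcer1g and Lyz2 on all 3 arrays of wild-type cells. The mean leukocyte level was 6.70 to 6.87 log2 units in AG1478-treated MT-HGF, 6.65 to 6.76 in MT-HGF and 6.76 to 6.89 in v-rasHa cells, against 6.95 to 7.13 in wild-type cells. The summed linear signal of the same 9 markers ran the other way, at 1673 to 1973 in AG1478-treated MT-HGF, 1768 to 1898 in MT-HGF and 1834 to 2013 in v-rasHa cells, against 1407 to 1493 in wild-type cells. Cd68, the highest of the 9 in each group, weighs most in such a sum. Cd68, which encodes a lysosomal protein abundant in macrophages, was at 10.08 ± 0.17 log2 units in AG1478-treated MT-HGF, 10.24 ± 0.13 in MT-HGF and 10.25 ± 0.14 in v-rasHa cells, against 8.96 ± 0.22 in wild-type cells (SD, n = 3 arrays each). It was higher than in wild type by 1.29 ± 0.11 log2 units with v-rasHa (limma adjusted p = 1.22e-07) and by 1.28 ± 0.11 in MT-HGF cells (limma adjusted p = 9.26e-08), as S100a8 and S100a9 were. Of the 9 markers it was the 1 called higher in each of these comparisons, and 4 were called lower in each. Of all genes 12.6% were called higher and 19.9% lower with v-rasHa, and 17.1% and 23.9% in MT-HGF cells. Between AG1478-treated and untreated MT-HGF cells Cd68 differed by -0.16 ± 0.11 log2 units, with overlapping arrays.

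Other cell types were present in the cultures by their markers. All 7 melanocyte markers and 8 of 9 fibroblast markers were above background on every array, and 0 of 4 measured endothelial markers (of 6 listed) were on all 3 arrays of any group. The mean fibroblast level was 8.56 to 8.62 log2 units in AG1478-treated MT-HGF and 8.53 to 8.62 in MT-HGF cells, 8.06 to 8.10 in v-rasHa cells and 8.57 to 8.65 in wild-type cells. Against wild type, 0 fibroblast markers were called higher (12.6% of all genes) and 4 lower (19.9%) in v-rasHa cells. In MT-HGF cells 4 were called higher (17.1%) and 5 lower (23.9%). Melanocyte markers averaged 9.94 to 10.05, 9.91 to 10.07, 10.30 to 10.44 and 10.19 to 10.38 log2 units in the same order of groups. The part of these cells in the results was not tested, and in bulk RNA fewer cells of a type and less RNA per cell cannot be told apart.

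Further antimicrobial genes were tested with limma across all 15868 genes, where a gene was called at a Benjamini-Hochberg adjusted p under 0.05. In v-rasHa against wild-type cells 7 of 16 measured genes of this list were higher and 3 lower, while 12.6% of all genes were called higher and 19.9% lower. Counts for this and the other lists include genes whose values were not above background. S100a7a, which encodes a psoriasin-like S100 protein, rose by 2.69 ± 0.09 log2 units (adjusted p = 1.13e-12) and Pglyrp4, a peptidoglycan recognition protein gene, by 2.13 ± 0.11 (adjusted p = 1.82e-10). The defensin gene Defb4 rose by at least 1.04 log2 units (adjusted p = 2.30e-10). Here and below, an adjusted p beside a bound is that of the fitted difference (2.16 ± 0.12 for Defb4), and the bound itself was not tested. Lyz2, a lysozyme gene that is also among the leukocyte markers, fell by at least 0.71 log2 units (adjusted p = 2.77e-06). The median of the list was 0.11 log2 units, against -0.02 for all genes.

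In MT-HGF against wild-type cells 7 of the 16 were higher and 2 lower, beside 17.1% and 23.9% of all genes. S100a7a rose by 1.66 ± 0.09 log2 units (adjusted p = 3.83e-10), Pglyrp4 by 1.64 ± 0.11 (adjusted p = 3.76e-09) and Defb3 by at least 0.36 (adjusted p = 3.85e-07), and Lyz2 fell by at least 0.77 (adjusted p = 2.26e-07). Between AG1478-treated and untreated MT-HGF cells 4 were higher and 4 lower, beside 6.57% and 9.91% of all genes. S100a7a fell by 0.97 ± 0.09 log2 units (adjusted p = 2.05e-06) and the hydrogen peroxide-producing oxidase gene Duox1 by 0.77 ± 0.09 (adjusted p = 1.50e-05). The defensin genes Defb6 (1.22 ± 0.08 log2 units, adjusted p = 3.94e-08) and Defb3 (0.67 ± 0.14, adjusted p = 0.00341) rose under AG1478. Defb1 (mean 9.24 against 8.58 log2 units) and Defb4 (7.57 against 6.92) were also higher in treated cells, with arrays that did not overlap. Defb14 was thus lower in treated cells, while the other measured defensin genes above background there, Defb1, Defb3, Defb4 and Defb6, were higher. Defb8 was not above background on any array. Between MT-HGF and v-rasHa cells 2 were higher and 4 lower (13.4% and 12.6% of all genes), with Defb4 at -1.06 ± 0.12, S100a7a at -1.03 ± 0.09, Pglyrp4 at -0.49 ± 0.11 and Lpo, which encodes lactoperoxidase, at 0.40 ± 0.11 log2 units.

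Relatives of S100a8 and S100a9 were counted next. Of 13 other S100 genes, S100a7a included again, 2 were higher (12.6% of all genes) and 1 lower (19.9%) in v-rasHa cells than in wild type. In MT-HGF cells 3 were higher (17.1%) and 2 lower (23.9%) than in wild type. S100a4 fell by 0.98 ± 0.10 log2 units (adjusted p = 7.87e-07) with v-rasHa and by 1.30 ± 0.10 (adjusted p = 1.49e-08) in MT-HGF cells, and S100a16 rose by 0.24 ± 0.07 (adjusted p = 0.00968) and 0.27 ± 0.07 (adjusted p = 0.00371). Under AG1478 0 were higher (6.57% of all genes) and 3 lower (9.91%): S100a7a, S100a14 (-0.39 ± 0.11 log2 units, adjusted p = 0.0181, with overlapping arrays) and S100a16 (-0.22 ± 0.07, adjusted p = 0.0346). The list's medians were 0.03, 0.04 and -0.08 log2 units in these comparisons.

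Slpi belongs to the whey acidic protein (WAP) domain genes, of which 6 others were measured. In v-rasHa cells 3 of the 6 were higher than in wild type (12.6% of all genes) and 0 lower (19.9%). Wfdc2 rose by 1.00 log2 units or more (adjusted p = 5.93e-07) and Wfdc5 by 0.86 ± 0.12 (adjusted p = 3.39e-05). In MT-HGF cells 1 was higher (17.1% of all genes) and 0 lower (23.9%). Wfdc2 rose by at least 2.49 log2 units (adjusted p = 5.58e-11). Under AG1478 Wfdc5 rose by 1.22 ± 0.12 log2 units (adjusted p = 2.66e-06) and Wfdc2 fell by 0.44 ± 0.14 (adjusted p = 0.0482), the 2 of 6 that were called. Of all genes 6.57% were called higher and 9.91% lower there.

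Acute phase and chitinase-like genes had 7 measured members of 14 listed. For v-rasHa with wild type 1 was higher (12.6% of all genes) and 0 lower (19.9%). For MT-HGF with wild type 3 were higher (17.1%) and 0 lower (23.9%): Chit1, the chitotriosidase gene (0.75 log2 units or more, adjusted p = 2.21e-09), the protease inhibitor gene Serpina3n (0.94 or more, adjusted p = 6.44e-08) and Orm1, which encodes the acute phase protein orosomucoid (0.49 ± 0.07, adjusted p = 4.66e-05). AG1478-treated cells had 2 of the 7 higher than untreated MT-HGF cells (6.57% of all genes) and 0 lower (9.91%). Orm1 rose by 1.84 ± 0.07 log2 units (adjusted p = 1.15e-10), with 9.45, 9.30 and 9.44 on the treated arrays against 7.65, 7.45 and 7.57 on the untreated ones, and Chit1 rose by 0.44 ± 0.08 (adjusted p = 0.0012). Both were thus higher beside Lcn2 and Chil1 in the treated cells.

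**Figure D3:**
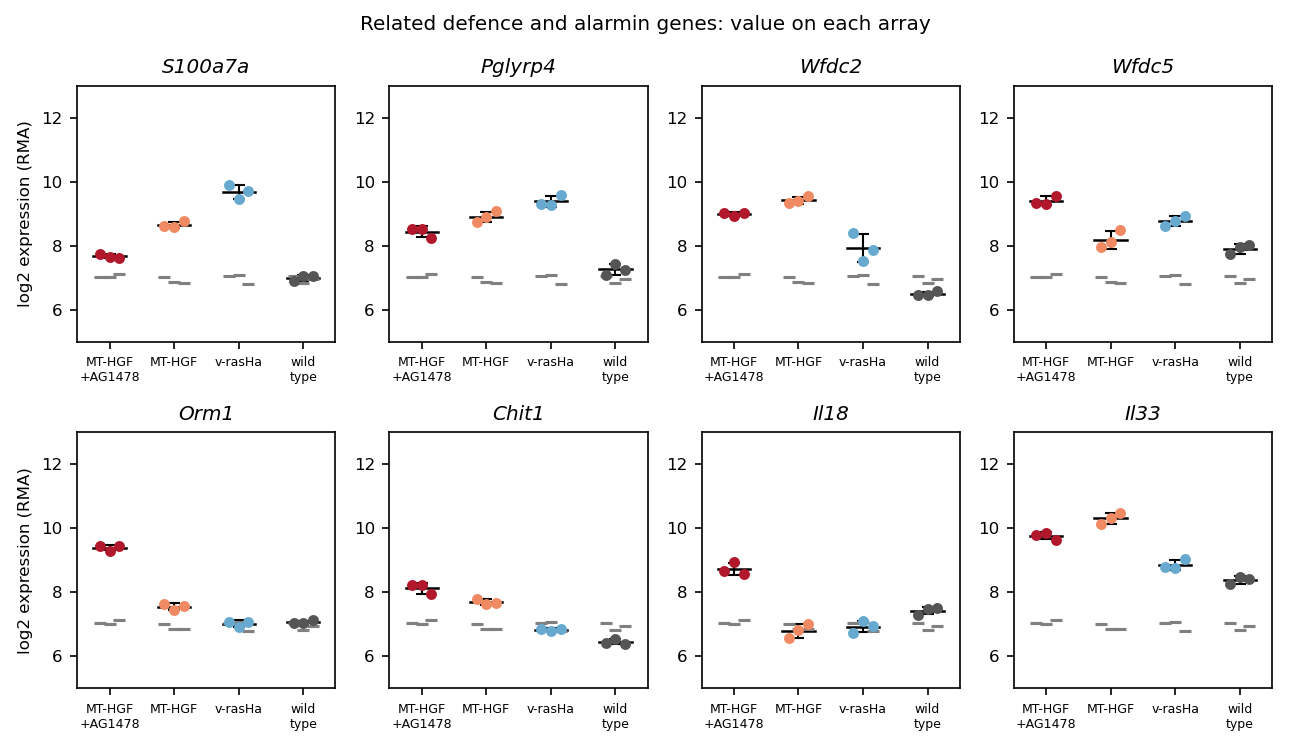
Log2 expression (vertical axis) on every array for 8 related genes by group (horizontal axis: AG1478-treated MT-HGF, MT-HGF, v-rasHa, wild type); points are arrays, long bars and whiskers the mean and SD of 3 arrays, and grey dashes each array's background. S100a7a and Pglyrp4 were highest in v-rasHa cells, Wfdc2 and Il33 in MT-HGF cells, and Orm1, Il18, Wfdc5 and Chit1 in AG1478-treated cells.

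Other alarmins split in the same comparisons. In v-rasHa cells 5 of 10 measured were higher than in wild type (12.6% of all genes) and 2 lower (19.9%). In MT-HGF cells 6 were higher (17.1%) and 1 lower (23.9%). The interleukin 1 alpha gene Il1a rose by 2.17 ± 0.08 (adjusted p = 2.52e-12) and 2.66 ± 0.08 log2 units (adjusted p = 2.30e-13), and Il33 rose by 1.93 ± 0.10 (adjusted p = 1.16e-10) in MT-HGF cells. Tslp, a cytokine gene of barrier epithelia, fell by 0.99 ± 0.08 log2 units (adjusted p = 5.06e-08) with v-rasHa. Under AG1478 2 were higher (6.57% of all genes) and 3 lower (9.91%). Il18 rose by 1.94 ± 0.12 log2 units (adjusted p = 9.79e-09), and the heat shock gene Hspa1a by 0.69 ± 0.08 (adjusted p = 1.33e-05). Tslp fell by 0.88 ± 0.08 (adjusted p = 1.19e-06) and Il1a by 0.79 ± 0.08 (adjusted p = 3.92e-06). Il18 read 8.67, 8.95 and 8.58 log2 units on the treated arrays, above both the untreated MT-HGF arrays (6.57, 6.82 and 6.998) and the wild-type ones (7.30, 7.49 and 7.50).

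Receptors and binding partners of the 7 proteins had 12 measured genes, of 17 listed. Of these, 2 were higher (12.6% of all genes) and 3 lower (19.9%) in v-rasHa cells than in wild type. In MT-HGF cells 3 were higher (17.1%) and 2 lower (23.9%). The 2 counted higher with v-rasHa were not above background on any array of v-rasHa or wild-type cells. Tlr2, a receptor of bacterial lipopeptides, fell by 0.39 ± 0.06 log2 units (adjusted p = 5.45e-05) with v-rasHa and by 0.29 ± 0.06 (adjusted p = 0.000683) in MT-HGF cells. In AG1478-treated cells it was the 1 gene of the list that was called, and it rose by 0.73 ± 0.06 log2 units (adjusted p = 2.36e-07). Of all genes 6.57% were called higher and 9.91% lower there. Grn, which encodes progranulin, a protein that Slpi protects from cleavage, rose by 0.31 ± 0.06 (adjusted p = 0.000347) in MT-HGF cells.

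Among 26 measured inducers and regulators of antimicrobial genes, 6 were higher (12.6% of all genes) and 6 lower (19.9%) with v-rasHa, against wild type. In MT-HGF cells 8 were higher (17.1%) and 7 lower (23.9%) than in wild type. Il22ra1, a subunit gene of the interleukin 22 receptor, rose by 0.78 ± 0.10 (adjusted p = 6.95e-06) and 1.36 ± 0.10 log2 units (adjusted p = 5.41e-09), and Il1rap, which encodes the co-receptor of interleukin 1, by 0.69 ± 0.07 (adjusted p = 1.51e-06) and 0.87 ± 0.07 (adjusted p = 5.55e-08). Stat3 fell by 0.43 ± 0.06 log2 units (adjusted p = 1.98e-05) with v-rasHa. Under AG1478 8 of the 26 were higher (6.57% of all genes) and 1 lower (9.91%), with a median of 0.18 log2 units against 0.02 for all genes. Stat3 rose by 0.50 ± 0.06 (adjusted p = 1.27e-05), Il6st, the shared receptor chain of interleukin 6 family cytokines, by 0.56 ± 0.08 (adjusted p = 0.000108) and the vitamin D receptor gene Vdr by 0.44 ± 0.09 (adjusted p = 0.00157).

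For each of the 7 genes, the 2 other genes with the most similar values over the 12 arrays were named by Pearson correlation, as a description. The arrays form 4 groups, so the correlation mostly follows 4 group means. For Defb14 these were Ankrd22 (r = 0.996) and the cornified envelope gene Lce3c (r = 0.993). S100a8 was followed by Man1a (r = 0.996) and the small proline-rich gene Sprr2g (r = 0.994), and S100a9 by Lgalsl and the desmosomal cadherin gene Dsc2 (r = 0.997 and 0.996). For Slpi they were Gba2 and S100a7a (both r = 0.993). Chil1 was closest to Slc5a8 (r = 0.995) and the kallikrein gene Klk14 (r = 0.993), and Lcn2 to Hpgd, which encodes a prostaglandin-degrading enzyme (r = 0.991), and Rin2 (r = 0.988). Saa3, whose values were not above background, was closest to Cit and Hp1bp3 (r = 0.958 and 0.942). On the 9 arrays without AG1478, Klk14 ranked 404 by correlation with Chil1 (r = 0.930). Hpgd and Rin2 then ranked 101 and 239 with Lcn2 (r = 0.979 and 0.961), and the other genes named here ranked 1 to 23. Klk14 was at 9.55 ± 0.14 log2 units in AG1478-treated and 7.70 ± 0.05 in untreated MT-HGF cells, against 7.28 ± 0.16 in v-rasHa and 7.01 ± 0.10 in wild-type cells (SD, n = 3 arrays each).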

How the data were processed

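Deposited log2 values per transcript cluster were taken without change; the authors made them with RMA, per the submitters' processing notes, which name no version here. The series' design text counts 3 conditions where the labels show 4. Groups came from the sample titles. The file held 35511 clusters, of which the platform annotation gave 21789 a single symbol and 1621 several, and 12101 were not listed. The filter on low values asked for 3 or more of 12 arrays over the array's own 30th percentile and passed 25860. Only single-symbol clusters were tested, and for 815 genes with more than 1 the one of highest mean stood for the gene. Symbols were checked by Entrez ID against RefSeq (21698 matched, 0 changed).

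A group-means model over all 12 arrays was fitted with limma 3.58.1 in R 4.3.3 (default eBayes, 8 residual and 8.02 prior degrees of freedom), tested on simulated data first, with two-sided p-values adjusted by Benjamini-Hochberg over all 15868 genes. Fold changes are differences of log2 means, and values near background understate them. A bound sets the higher group's mean against the mean of the lower arrays' background percentiles. The 7 genes, the gene lists and the tests were chosen with earlier results of these data known. From each list, up to 4 called genes with the largest difference that were above background on all arrays of 1 of the compared groups could be named, with S100a7a, Lyz2, Camp, Elane and Ltf standing in more than 1 list. For AG1478, Defb1, Defb4 and Defb8 were named besides, to cover the measured defensin genes. Replicate number was not used as a block. Alternatives covered the filter, scaling, array weights, the samples in the fit, the handling of several clusters, the background percentile and each array left out.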

Additional observations from a re-analysis of the deposited data

How the results depend on the processing

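No difference given for the 7 genes changed sign under any alternative that was run. With array weights 8096 genes were called for v-rasHa with wild type, against 5158 with equal weights, and 3925 for AG1478-treated with untreated MT-HGF cells, against 2615. The cause was not tested. All other counts of called genes stayed within 1.5 times. With a background at the 99th percentile, 0 of the 7 genes were above it on all wild-type arrays, against 3 at the 95th. Taken over all 1245 chemosensory clusters, a choice made after seeing the data, the background left 7, 7, 6 and 4 genes above it in AG1478-treated MT-HGF, MT-HGF, v-rasHa and wild-type cells, against 6, 6, 5 and 3, so calling Saa3 and Lcn2 not above background depends on it. Without MT-HGF replicate 1 the MT-HGF to v-rasHa differences became -0.22 for Defb14 (-0.42 with all arrays) and 0.21 for S100a9 (0.14), and without wild-type replicate 1 the v-rasHa to wild-type difference of Chil1 became 0.14 (0.23). Array weights gave 0.11 for this Chil1 difference, and -0.28 for S100a8 between AG1478-treated MT-HGF and v-rasHa cells (-0.45 with equal weights). Every other difference given for the 7 genes stayed within 1.5 times under the alternatives run. Leaving out single arrays gave 4103 to 5246 called genes for v-rasHa with wild type, 5520 to 6243 for MT-HGF with wild type, 2956 to 3771 for MT-HGF with v-rasHa, 1787 to 2449 for AG1478-treated with untreated MT-HGF cells, and 5811 to 6921 and 4843 to 5681 for AG1478-treated MT-HGF with wild type and with v-rasHa. Of the 7 genes, 5 to 7 then did not overlap for v-rasHa with wild type and 6 to 7 for MT-HGF with v-rasHa.

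Replicate numbers share no stated source. Deviations of same-numbered arrays correlated at 0.05 to 0.53 for MT-HGF with wild type, 0.09 to 0.50 for MT-HGF with v-rasHa and -0.24 to 0.40 for v-rasHa with wild type, and at -0.44 to 0.22 where AG1478-treated arrays were one side. In no comparison were all 3 pairs over 0.1, the level asked for here, so the numbers were not taken to pair the arrays. For MT-HGF with v-rasHa, each same-numbered pair still correlated more than the best other-numbered one. The values were 0.473, 0.0868 and 0.495, against 0.0371, -0.0248 and -0.0863. A shared source of these arrays was not tested. With the replicate number as a block, 5262 genes were called for v-rasHa with wild type, against 5158 without it. For MT-HGF with v-rasHa 4254 were called, against 4131, and for AG1478-treated with untreated MT-HGF cells 2708, against 2615.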
